A study of Homo sapiens with 8 samples.

Results

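Genes by which hypoxic cells handle acid were examined for HIF-1β binding: CA9 and CA12 (carbonic anhydrases), SLC16A1 and SLC16A3 (the lactate transporters MCT1 and MCT4) and SLC4A4 (the sodium bicarbonate cotransporter NBCe1). They are 5 of the 20162 protein-coding genes of the GENCODE annotation on GRCh37 (hg19). They were grouped by function, with earlier results of these data known. All peaks that overlapped a gene body, extended by 25 kb on each side, were taken, which gave 29 of the 18645 peaks in the series. Merged over the libraries, these peaks formed 7 of 8370 regions.

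HIF-1β ChIP-seq was performed in PC-3 (prostate cancer), T47D (breast cancer), A549 (lung cancer) and HCT-116 (colorectal cancer) cells, with 2 replicates of each line. According to the labels, all 8 libraries came from cells held at 0.5% oxygen for 16 h, and no normoxic or control library was analysed here. Each library has its own list of peaks with a score, between 1042 peaks in PC-3 replicate 1 and 3790 in HCT-116 replicate 2. The lists hold no reads, so sequencing depth is unknown, and a gene without a peak is a gene without a called peak at that depth. PC-3 replicate 2 had 2891 peaks, so that the shorter list of replicate 1 limits what could be shared in this line. The labels do not say whether replicates came from separate cultures, and the p-values below therefore measure the spread between these libraries, which may be technical.

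HIF is a dimer of an oxygen-regulated α subunit and the constitutive HIF-1β subunit, and it binds DNA at the core motif RCGTG, that is ACGTG or GCGTG. Cells that rely on glycolysis release lactate together with a proton through monocarboxylate transporters, and membrane carbonic anhydrases with their active site outside the cell convert carbon dioxide and water to bicarbonate and protons. Bicarbonate is carried back into the cell by cotransporters, which raises the internal pH. The antibody recognises HIF-1β and does not show which partner was bound with it, and no RNA was measured in these libraries.

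The motif and its surroundings at the regions on which the results turn are shown first, each with 1 stretch centred on the copy nearest to the point that most peaks had in common. At CA9 only the 30 bases before the transcription start are given, because the sequence also lies in an untranslated exon of a transcript of the neighbouring ARHGEF39. At SLC16A1 the stretch was taken upstream of the first exon. All were read from GRCh37 along the strand of the gene. Capitals mark ACGTG or GCGTG or, where the motif lies on the opposite strand, CACGT or CACGC, so that a palindromic CACGTG counts as a copy on each strand.
CA9 promoter, chr9:35673895-35673924, plus strand: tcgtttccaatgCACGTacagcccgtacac
Region in the CA9 window at the RMRP gene, chr9:35657885-35657944, plus strand: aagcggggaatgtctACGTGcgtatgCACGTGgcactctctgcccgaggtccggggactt
CA12 intron 2, chr15:63664700-63664799, minus strand: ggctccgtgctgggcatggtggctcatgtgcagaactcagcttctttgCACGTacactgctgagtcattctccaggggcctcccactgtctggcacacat
SLC16A1 upstream of exon 1, chr1:113498903-113499002, minus strand: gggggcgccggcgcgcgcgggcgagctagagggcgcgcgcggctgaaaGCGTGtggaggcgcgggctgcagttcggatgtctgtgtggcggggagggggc
SLC16A3 intron 1, chr17:80188950-80189049, plus strand: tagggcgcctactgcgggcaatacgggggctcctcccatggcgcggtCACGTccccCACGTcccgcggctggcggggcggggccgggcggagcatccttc

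A region counted as a site of a line if each replicate had a peak in it and these shared 1 bp or more. The number of these genes with a site in the window was lowest in PC-3 and highest in HCT-116 cells, and SLC16A3 was the 1 gene with a site in every line. In PC-3 cells 1 of the 5 genes (SLC16A3) had a site, where 7.07% of all protein-coding genes did. In T47D cells 2 genes (CA9 and SLC16A3) had one, against 16.0% of all genes. In A549 cells the number was 3 (CA9, CA12 and SLC16A3) against 6.01%, and in HCT-116 cells it was 4 (CA9, CA12, SLC16A1 and SLC16A3) against 14.2%. A site in all 4 lines was present at 2.46% of all genes, and 75.6% of them had none in any line. SLC4A4 belonged to the latter.

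Sites close to the start were fewer. Within 2 kb of the start of the main transcript, PC-3 cells had a site at 1 of the 5 genes (SLC16A3), as did 1.97% of all genes, and T47D cells at 2 (CA9 and SLC16A3), against 6.65%. A549 cells also had them at CA9 and SLC16A3, against 1.46%, and HCT-116 cells at SLC16A1 and SLC16A3, against 5.75%. The SLC16A3 site met this rule in all 4 lines, as did 0.828% of all genes. CA9 in HCT-116 cells and CA12 in A549 and HCT-116 cells had sites in the window only. With 5 genes that were not drawn at random, these counts are a description and no test was made of them.

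**Figure D1:**
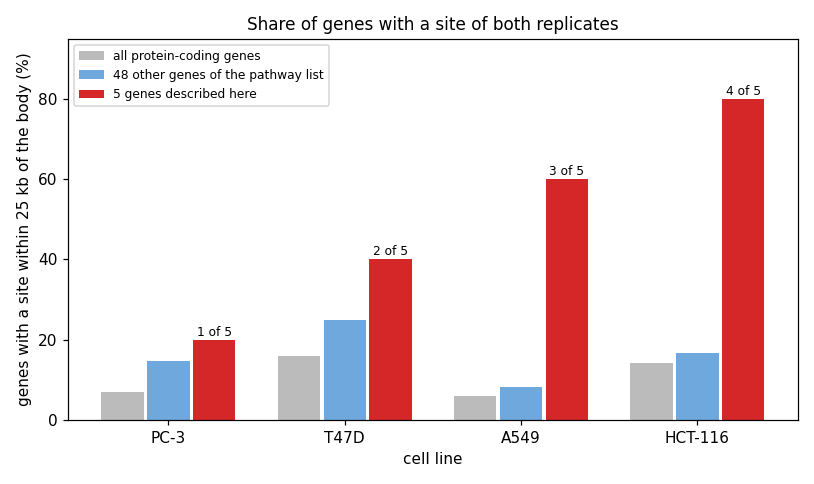
Share of genes with a site of both replicates within 25 kb of the gene body (y axis, %) in each cell line (x axis), for all protein-coding genes (grey), the 48 other genes of the pathway list (blue) and the 5 genes described here (red, with their number above the bar). The red bars rest on 1, 2, 3 and 4 of 5 genes in PC-3, T47D, A549 and HCT-116 cells, and the grey bars lie between 6.01% and 16.0%.

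CA9, a tumour-associated carbonic anhydrase of the cell surface and a classical HIF target, lies on the plus strand at chr9:35673925-35681156. Its promoter had a peak in 5 of the 8 libraries. The merged region, chr9:35673172-35674572, was centred 53 bp upstream of the start, and each of the 5 peaks covered the start itself. In A549 cells the peak had a score of 189.6 and rank 432 of 1768 in replicate 2, and a score of 207.8 and rank 252 of 1270 in replicate 3. In T47D cells it had a score of 57.8 and rank 2517 of 3061 in replicate 1, and 82.3 and rank 1590 of 2910 in replicate 2. Both A549 peaks were thus in the upper part of their lists (24.4% and 19.8% from the top). Both T47D peaks were in the lower part (82.2% and 54.6%). HCT-116 replicate 2 had a peak with a score of 52.1 at rank 3647 of 3790, close to the lowest score in that list (50.01). HCT-116 replicate 3 and both PC-3 libraries had no peak there.

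The CA9 promoter region held 1 copy of the motif, which began 18 bp upstream of the start on the minus strand (-18 bp; the CACGT of the first sequence above), and all 5 peaks lay over it. At 0.71 copies per kb the region was poorer in motifs than the typical site, for which the median lay between 2.61 copies per kb (A549) and 3.76 (HCT-116). Its copy was nevertheless within the central 200 bp, as at 76.3% of all A549 sites and 66.6% of all T47D sites. The region was also the poorest in CpG of the 7 regions, with 10.0 CpG per kb, against 84.4 per kb at the SLC16A1 promoter.

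A second region in the CA9 window, chr9:35657142-35658943, was centred 15883 bp upstream of CA9. It covered the starts of CCDC107, which encodes a coiled-coil protein, and of RMRP, the RNA component of the mitochondrial RNA processing endoribonuclease. Of the 8 libraries, 7 had a peak there. The peak was strong in T47D cells, with a score of 476.6 at rank 134 in replicate 1 and of 552.7 at rank 141 in replicate 2. HCT-116 cells had scores of 367.8 (rank 381) and 171.7 (rank 489), and A549 cells 219.0 (rank 374) and 105.8 (rank 565). PC-3 replicate 2 had a score of 60.9 at rank 2275 of 2891, and PC-3 replicate 1 had no peak. The order of the lines was therefore not that of the CA9 promoter: T47D cells ranked highest here and below A549 cells at the promoter.

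In HCT-116 cells the site in the CA9 window was the one at CCDC107 and RMRP alone, and the CA9 promoter had a peak in replicate 2 only. In T47D and A549 cells both regions were sites. The CCDC107 and RMRP region held 15 copies of the motif, 13 of them under all 7 peaks, and the printed stretch contains 3 of these, counting both strands of CACGTG. Which gene is regulated from this region was not tested.

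**Figure D2:**
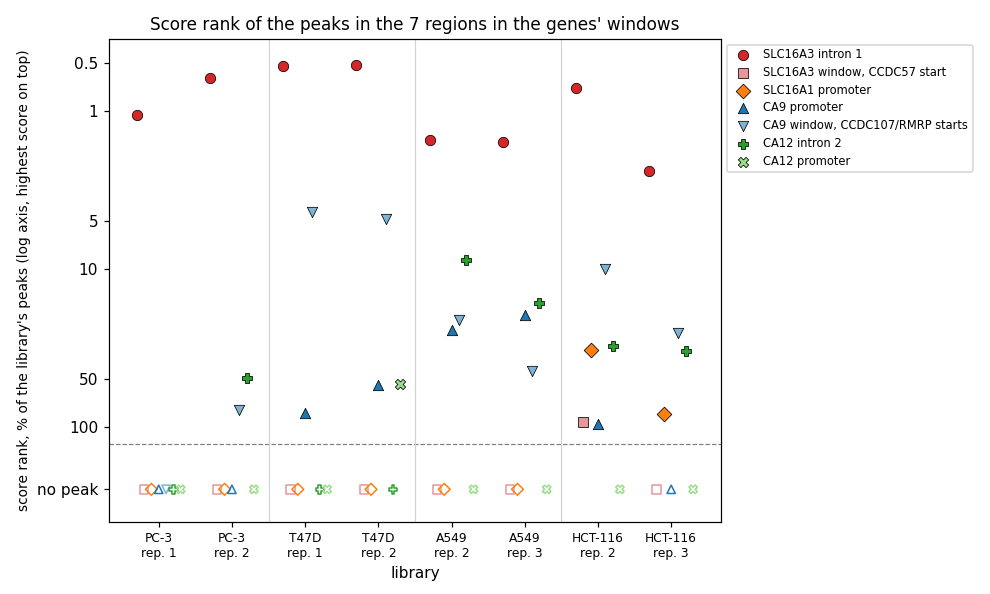
Score rank of the peak in each of the 7 regions (y axis, rank as % of the library's peaks on a log axis, highest score on top) in each of the 8 libraries (x axis); open symbols below the dashed line stand for no peak. The SLC16A3 intron 1 region (red circles) lies within the top 2.4% in every library, and the CA9 promoter (dark blue triangles) stands at 24.4% and 19.8% in the A549 libraries and at 54.6% or lower in every other library with a peak.

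CA12, another membrane carbonic anhydrase with an extracellular active site, lies on the minus strand at chr15:63613577-63674045. Its sites lay in an intron. The intronic region, chr15:63664098-63665552, was centred 9220 bp downstream of the main start in intron 2. A549 cells had a score of 445.0 at rank 156 in replicate 2 and of 245.0 at rank 210 in replicate 3. In HCT-116 cells the scores were 146.1 (rank 1168 of 3790) and 131.1 (rank 636 of 1913). PC-3 replicate 2 had a peak of 88.7 at rank 1430 of 2891, and PC-3 replicate 1 and both T47D libraries had none. In relative terms the A549 peaks stood 8.82% and 16.5% from the top of their lists, and the HCT-116 peaks 30.8% and 33.2%.

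Of the 6 motif copies in the CA12 intron region, 2 were under all 5 peaks. The copy printed above lies 11 bp from the point shared by most peaks. This region was 1455 bp long, and the PC-3 peak in it was the narrowest, at 737 bp. The promoter of CA12 had a peak in 1 library only, T47D replicate 2, at chr15:63672861-63674598 with a score of 83.4 (rank 1562 of 2910). It covered the start and 16 copies of the motif. T47D replicate 1 had no peak within 121945 bp of CA12, so the gene had no site in T47D cells under the rule of both replicates.

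SLC16A3 encodes MCT4, the transporter by which highly glycolytic cells export lactate, and lies on the plus strand at chr17:80175810-80219005. It had the highest-ranked region of the 5 genes in each of the 8 libraries. The region, chr17:80185628-80191563, had a peak in all 8 libraries, and the point common to most peaks lay in intron 1, 2067 bp downstream of the main start. In PC-3 cells the peak had a score of 1149.7 at rank 11 of 1042 in replicate 1 and of 1953.8 at rank 18 of 2891 in replicate 2. In T47D cells the scores were 1828.3 (rank 16) and 2092.0 (rank 15). A549 cells had 1393.0 (rank 27) and 1172.4 (rank 20), and HCT-116 cells 2337.9 (rank 27) and 1115.4 (rank 46). All 8 peaks were thus within the top 2.4% of their lists. As a share of the list, the T47D peaks stood highest (0.523% and 0.515% from the top). The PC-3 peaks stood at 1.06% and 0.623% and the A549 peaks at 1.53% and 1.57%, and those of HCT-116 cells (0.712% and 2.4%) overlapped the range of PC-3 and spanned that of A549 cells. This order depends on the lengths of the lists, because by rank itself PC-3 cells (11 and 18) overlapped T47D cells (16 and 15).

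Among genes with a site in the line, ordered by the mean percentile of the site over both replicates, SLC16A3 took place 18 of 1426 in PC-3 cells, 34 of 3221 in T47D cells, 31 of 1212 in A549 cells and 68 of 2869 in HCT-116 cells. The peaks differed in width, from 1483 bp in PC-3 replicate 1 to 5156 bp in HCT-116 replicate 3. Those of HCT-116 cells reached upstream of the main start, as did T47D replicate 2 by a short distance, while those of PC-3 and A549 cells began downstream of it. The centre of the peak accordingly ranged from 895 bp downstream of the start in HCT-116 replicate 2 to 2340 bp in T47D replicate 1.

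The SLC16A3 region held 20 copies of the motif, of which 6 were under all 8 peaks. Only 2 copies were within the central 200 bp, and they form the pair of CACGT printed above, whose first bases are 2079 and 2088 bp downstream of the start. SLC16A3 is annotated with 19 transcript starts, and the nearest to the centre of the merged region is not the main one but a start further downstream. A separate peak in its window, chr17:80170005-80171899, was found in HCT-116 replicate 2 alone (score 54.0, rank 3531 of 3790) at the start of CCDC57, a coiled-coil protein gene.

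SLC16A1 encodes MCT1, the more widely expressed lactate transporter, and lies on the minus strand at chr1:113454469-113500215. It had a peak in HCT-116 cells only. The region, chr1:113497890-113499678, covered the main start, and the point common to both peaks lay in exon 1. The score was 140.3 at rank 1240 of 3790 in replicate 2 and 59.4 at rank 1584 of 1913 in replicate 3. The replicates thus placed it at 32.7% and 82.8% from the top, further apart than the median of 15.7 percentile points over the 1757 sites of this line. The ratio of the ranks differed less (0.35 on the log2 scale, against a median of 0.46). In the other 6 libraries the nearest peak was between 236922 bp (PC-3 replicate 2) and 2221524 bp (A549 replicate 2) from the gene body.

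The SLC16A1 promoter region was rich in the motif, with 15 copies, of which 13 were under both peaks and 5 in the central 200 bp. It also covers the start of SLC16A1-AS1, an antisense RNA, and the peaks do not tell the promoters apart. The stretch printed above shows the copy nearest to the shared point that lies upstream of exon 1.

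**Figure D3:**
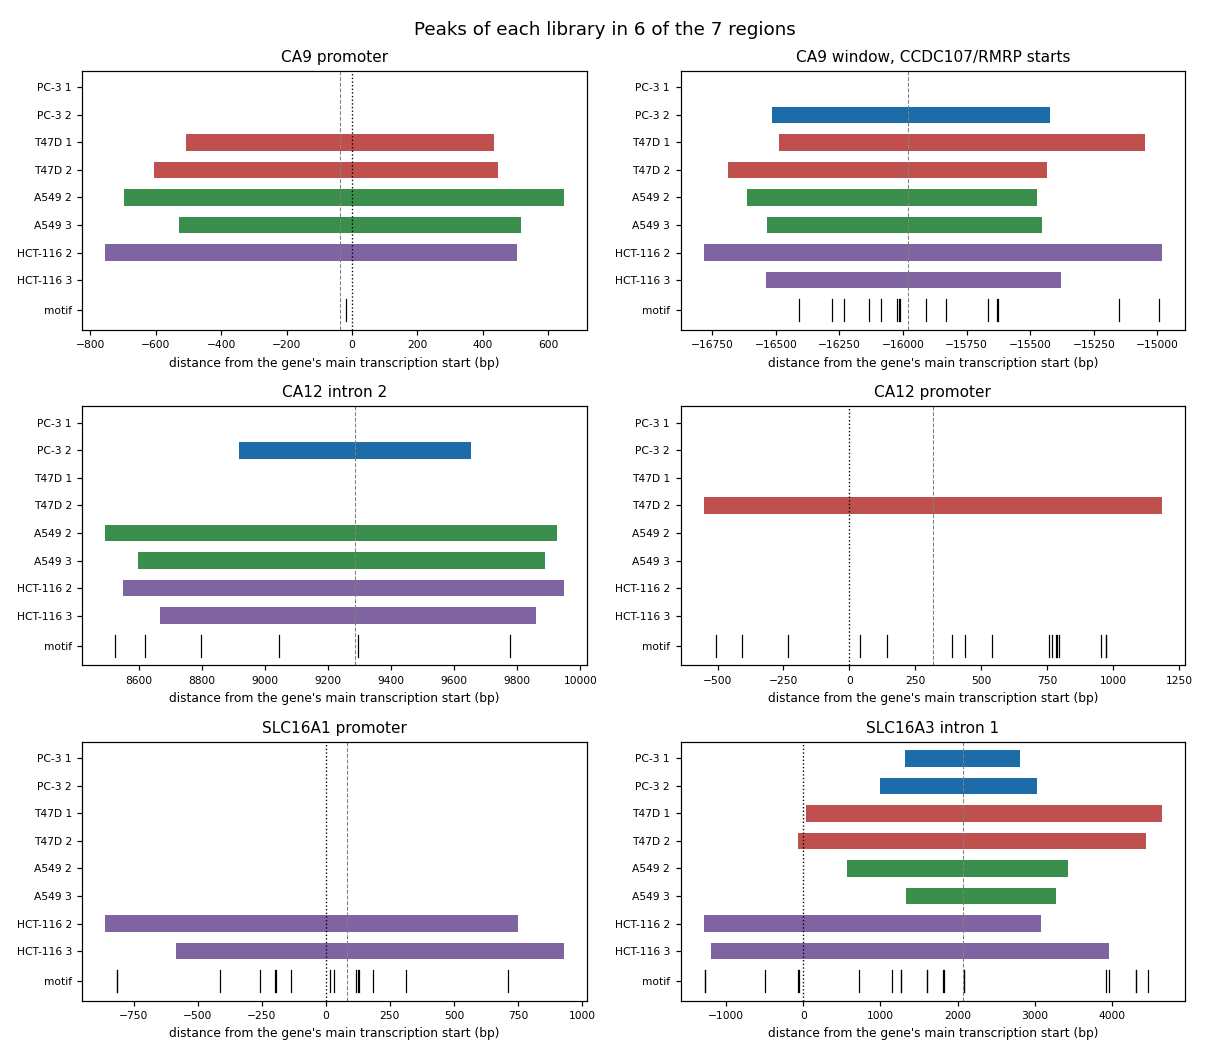
Peaks of each library (rows, coloured by line) in 6 of the 7 regions, against the distance from the main transcription start of the gene (x axis, bp); black ticks are motif copies, the dotted line is the start and the dashed line the point shared by most peaks. The CA9 promoter has 1 tick under its 5 peaks, and at SLC16A3 the dashed line, 2067 bp downstream of the start, runs through all 8 peaks.

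SLC4A4 encodes a cotransporter that carries sodium and bicarbonate together and lies on the plus strand at chr4:71928384-72437804. Although it was the longest of the genes, with a body of 509421 bp, no library had a peak in its window. The nearest peak was 373780 bp from the gene body in HCT-116 replicate 2, where the nearest protein-coding start was that of UTP3. In the other 7 libraries it was between 2104046 bp (PC-3 replicate 2) and 5641204 bp (PC-3 replicate 1) away. SLC4A4 was also the 1 gene of the 4 found in the RefSeq promoter table without a motif in its promoter.

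**Figure D4:**
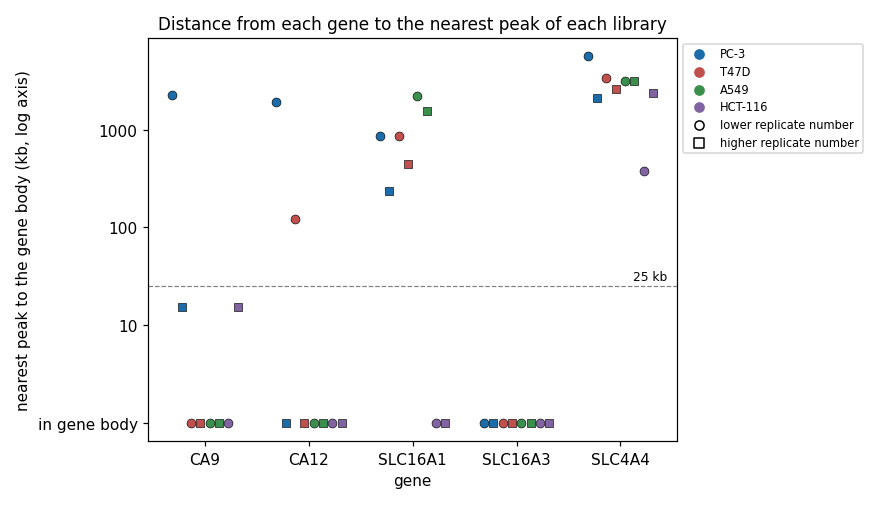
Distance from the body of each gene to the nearest peak of each library (y axis, kb on a log axis, with peaks in the body set at the bottom), coloured by cell line, with circles for the lower and squares for the higher replicate number. The SLC16A3 points are all in the gene body, whereas the SLC4A4 points are all above the 25 kb line, the nearest at 373780 bp.

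The RefSeq promoter table (GRCh38.p14, 250 bases before to 50 after the start) holds CA9, CA12, SLC16A3 and SLC4A4. ACGTG or GCGTG, on either strand, was present in 3 of these 4 promoters and in 48.4% of the 35116 promoters of the table. CA9 had 1 copy and CA12 had 2, and SLC16A3 had 1. The SLC16A3 copy lies at -165 bp from the start that the table uses, which is not the main start used above, where the nearest upstream copies in the region were at -55, -68 and -491 bp. The SLC16A3 copy in this table is not the pair under its 8 peaks, and the CA12 copies are not those under its intronic peaks. At -234 and 39 bp, the CA12 copies have the positions of 2 copies under the promoter peak of T47D replicate 2. The CA9 copy, at -18 bp, has the position of the copy under its 5 promoter peaks. A match of these letters describes the sequence and does not show binding.

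Replicates can be compared for 12 pairs of a region and a line in which both had a peak. In 5 further pairs 1 replicate had a peak, and in 11 of the 28 neither did. Ranks at SLC16A3 differed between replicates by 0.09 on the log2 scale in T47D cells, 0.43 in A549 cells, 0.71 in PC-3 cells and 0.77 in HCT-116 cells. The corresponding medians over all sites of a line were 0.48, 0.50, 0.54 and 0.46. At the CA9 promoter the difference was 0.66 in T47D cells and 0.78 in A549 cells, and at CA12 it was 0.43 for the A549 and 0.88 for the HCT-116 libraries. The CCDC107 and RMRP region differed by 0.07 (T47D), 0.36 (HCT-116) and 0.60 (A549), and SLC16A1 by 0.35 (HCT-116). On this scale, replicates were thus closer than the median of their line in 6 of the 12 pairs and not closer in the other 6. This scale also carries the differing list lengths. In percentile points, CA12 in HCT-116 cells was closer than the line median (2.4 against 15.7). So were the CA9 promoter in A549 cells (4.6 against 11.2) and SLC16A3 in PC-3 (0.4 against 21.4) and HCT-116 cells (1.7 against 15.7). Near the top of a list, as at SLC16A3, only few points can separate peaks. SLC16A1 in HCT-116 cells went the other way. The split thus depends on the scale.

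The SLC16A3 region was 1 of 233 regions with a peak in all 8 libraries, for which the score rank could be compared between lines. Replicates of a line differed by 0.50 on average on the log2 scale of the rank, and libraries of different lines by 0.80. Set against every possible pairing of the 8 libraries, this was not significant (one-sided exact permutation test, p = 0.086, or 0.14 after Benjamini-Hochberg adjustment over the 233 regions). No region passed the adjusted threshold of 0.05 (0.00% of regions), and 101 had an unadjusted p under 0.05. The smallest p that these pairings can give is 0.0095, so that no fewer than 45 of the 233 regions can pass together, and the lowest adjusted value was 0.069.

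For the other regions a test on the percentile of the score, with 0 for a library without a peak, was chosen after the data were seen. It was run over the 1453 regions with a peak in at least 4 libraries. The CA9 promoter differed by 9.0 percentile points between replicates and by 43.9 between lines (one-sided exact permutation test, p = 0.029, adjusted p = 0.11). The CCDC107 and RMRP region differed by 15.2 and 45.2 points, and the CA12 intron by 15.2 and 50.8 points, with the same p and adjusted p. PC-3 cells at the CA9 promoter and T47D cells at the CA12 intron had no peak in either replicate. This counted as a difference of 0 within the line, which favours a small p. Regions also entered the test only through the libraries in which they had a peak. No conclusion is therefore drawn from these p-values. None of the 1453 regions passed the adjusted threshold (0.00%), and 434 had an unadjusted p under 0.05. SLC16A1, with peaks in 2 libraries, was not included. The smallest possible p was again 0.0095, so that no fewer than 277 of the 1453 regions can pass together. For the SLC16A3 region, the 1 region of these genes in the rank test above, the difference between lines was not significant after adjustment. With so coarse a test, this does not show that the lines are alike.

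Each gene's highest-ranked region was compared over the 8 libraries with the other regions of the series, by the mean absolute difference in percentile. The regions most like that of SLC16A3 were at the starts of ALDOA (0.31 percentile points), PGK1 (0.48) and PGAM1 (0.53), which all encode glycolytic enzymes. The CCDC107 and RMRP region in the CA9 window was most like those at the starts of LUC7L3 (4.34), which encodes a splicing factor, and NFE2L2 (8.74), which encodes the antioxidant regulator NRF2, and a region near TRIM55 (8.93). For the CA12 intron they were a region 22826 bp from the start of DDIT4 (5.59), a hypoxia-inducible inhibitor of mTOR, and regions further from PRAG1 (6.20) and FGFR1 (6.22). For SLC16A1 the regions were nearest to LSM14A (0.32), OSCAR (0.44) and ADCK5 (0.44). Regions with peaks in few libraries have many zeros in common, which makes these last values small. Regions near the top of every list, as at SLC16A3, can likewise differ by few points only.

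Other genes of acid and lactate handling were examined by the same rule, in a list of 48 further carbonic anhydrases, monocarboxylate transporters and their chaperones, bicarbonate transporters, sodium-proton exchangers and lactate dehydrogenases. PC-3 cells had a site at 7 of them, or 14.6%, and A549 cells at 4, or 8.3%. T47D cells had the most, 12 of the 48, and HCT-116 cells had 8, or 16.7%. By the same rule the shares of all genes were 7.07% (PC-3), 6.01% (A549), 16.0% (T47D) and 14.2% (HCT-116). No site was found in any line at 33 of the 48, which included 7 of the 8 sodium-proton exchangers and 10 of the 12 other members of the monocarboxylate transporter family. In 10 genes a site was found in 1 or 2 lines, and in 5 genes in 3 or 4.

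Only 1 of those 5 had sites at its own start in every line. LDHA, the lactate dehydrogenase that makes lactate from pyruvate, had a site that covered its start with ranks of 29 and 14 in PC-3 cells and 10 and 1 in T47D cells. In A549 cells the ranks were 18 and 24, and in HCT-116 cells 1 and 8. LDHA and SLC16A3, the enzyme that makes lactate and a transporter that exports it, were thus both among the highest-ranked peaks of each list. LDHC, the testis form of the enzyme, was counted through the LDHA site, which lies 16930 bp from its start in PC-3 cells.

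The sites of CA5A and CA11 were nearest to the starts of other genes. CA5A, a mitochondrial carbonic anhydrase, was counted in PC-3, T47D and A549 cells through a site nearest to the start of SLC7A5, an amino acid transporter gene, and 75006 bp or more from its own. T47D cells had another in its window that covered the start of BANP. CA11, a carbonic anhydrase-related protein without catalytic activity, was counted through sites nearest to the starts of DBP (PC-3 and HCT-116) and RPL18 (T47D and HCT-116). SLC4A9, of the bicarbonate transporter family, had a site 1675 bp from its start in T47D cells (ranks 1385 and 2119, mean percentile 41.0). In HCT-116 cells its site lay 1723 bp from that start (ranks 2202 and 1083, mean percentile 42.7). In PC-3 cells it had a site nearest to HBEGF.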

How the data were processed

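HIF-1β ChIP-seq was performed in 8 libraries of 4 lines. According to the study's methods and the submitters' processing notes, reads were trimmed with Trim Galore 0.3.3, aligned to GRCh37 (hg19) with BWA 0.7.5a-r405, processed with SAMtools 0.1.19, Picard 1.106 and bedtools 2.17.0, and peaks were called with MACS in each library. The methods also name the peak caller T-PIC, which cannot be seen in the lists. The authors deposited 1 list per replicate with a score for each peak, whose scale is not given in the sources used here. Its lowest value lay between 50.00 and 50.09 in every list. Scores were therefore converted to ranks within a library.

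Peaks of both replicates sharing 1 bp or more were merged into a site. Regions were merged over all 8 lists, and their distances were measured from the start of the main transcript of each gene (GENCODE release 44 lifted to GRCh37). Rank differences between lines were tested by exact permutation over all pairings of the libraries, adjusted over all regions. Overlap counting and this test were checked on simulated data. For the test, 100 of 250 regions were given a shift between lines that was large beside the noise. All 100 were called, and 1 of the 150 others. This checks the code only and does not measure what the test could find in these data. The analysis used Python 3.11.15, NumPy 2.4.6, pysam 0.24.0, Matplotlib 3.10.9, bedtools 2.31.1 and samtools 1.23.1.

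Genes named are the 5 genes, genes of the pathway list with a site in at least 3 lines, the genes with the nearest start to a peak, and the nearest genes of the 3 regions most alike. The genes and lists were chosen with earlier results of these data known.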

Additional observations from a re-analysis of the deposited data

How the results depend on the processing

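The count of the 5 genes with a site stayed within 1.5 times its value under all alternatives for T47D and A549 cells. In PC-3 cells it rose from 1 to 3 when a peak of either replicate sufficed, by CA9 and CA12, and lay between 1 (without replicate 2) and 3 (without replicate 1) when a replicate was left out. In HCT-116 cells it fell from 4 to 2 within 2 kb of the main start, a window chosen after the data were seen. It was 3 with a window of 10 kb or the gene body alone, when CA9 was lost, and 3 in the higher-scoring 50% of each list, when SLC16A1 was lost. The position of the region at the main start depended on the reference point for SLC16A1 and SLC16A3. For SLC16A1 its centre was 34 bp downstream of the main start and 1431 bp downstream of the 5' end of the gene body. The centre of its highest-scoring peak was at -54 bp, which is within the spread of the peak centres (standard deviation 160 bp). For SLC16A3 the centre was 1677 bp downstream of the main start and 12785 bp downstream of the 5' end of the gene body. From the nearest start of any transcript it was at -1513 bp. The CA9 promoter region stayed at -53 bp from all 3 of these points. The replicate numbers of the labels are not stated to mark a shared day or batch, and the correlation of the deviations of same-numbered libraries was 0.06 (PC-3 and T47D) and 0.15 (A549 and HCT-116). A replicate block kept only pairings that joined a replicate 2 with a library of another number. That number is 1 in PC-3 and T47D cells and 3 in A549 and HCT-116 cells, and the labels do not give this grouping. With this block, which leaves 24 pairings, 0 regions passed and the adjusted p of the SLC16A3 region was 0.25 in the permutation test. The smallest p with the block is 0.0417, which 195 of the 233 regions would have to reach for any to pass, so that this 0 says nothing about the block. No region passed in any other setting, where the smallest p was 0.0095. Over the other alternatives the adjusted p of the SLC16A3 region lay between 0.089 and 0.39. The number of regions with an unadjusted p under 0.05 was 32 with the block and 101 without it. These counts are not like for like, because fewer pairings allow fewer values of p under 0.05. Unknown depth limits any statement on absent peaks.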

Other observations

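Of the genes of the pathway list with a site in 1 or 2 lines, 3 are described here that were chosen after their values were seen. BSG, which encodes basigin, the chaperone that carries MCT1 and MCT4 to the cell surface, had a site in its window in A549 cells (ranks 1278 and 924) and HCT-116 cells (ranks 1037 and 1011). Both sites were nearest to the start of GZMM, 15998 bp and 15781 bp from that of BSG. SLC4A7, a sodium bicarbonate cotransporter gene, had a site over its own start in T47D cells (ranks 1376 and 1119). CA5B, a mitochondrial carbonic anhydrase gene, likewise had a site over its start in T47D cells only, at ranks 2689 and 2231, in the lowest-scoring part of both lists.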
